A study of Mus musculus with 10 samples.

Results

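Transcripts of 10 genes that encode plasma membrane carriers of amino acids were followed through 10 RNA sequencing libraries of mouse B-cell progenitors. The genes were picked by symbol, namely Slc3a2, Slc7a1, Slc7a5, Slc7a6, Slc7a11, Slc1a4, Slc1a5, Slc38a1, Slc38a2 and Slc43a1, out of 55573 Ensembl genes in the deposited count table, and each matched a single identifier. All libraries were made from bone marrow B-cells of PAX5-ELN H2B-GFP mice treated with doxycycline, at a labelled time of 35 days. PAX5-ELN is a fusion of a B-lineage transcription factor with elastin that is known from B-cell acute lymphoblastic leukemia, and H2B-GFP is a fluorescent histone that is diluted when cells divide. The 5 GFP high libraries are labelled quiescent and the 5 GFP low libraries proliferating. Both groups thus carry the fusion and the reporter and had the same treatment, and no library without the fusion was analysed here. The labels used here give neither the age of the mice nor the promoters of the transgenes, and name no animals. The p-values therefore measure only the spread between these libraries, which may be technical. Both libraries numbered 3 stood apart in having 2 to 9 reads on Y-linked genes, where the others had 309 to 2654, and values without this pair are given for the carriers that passed the test and for the other gene lists.

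Mammalian cells take up amino acids through several families of solute carriers. The SLC7 light chains followed here reach the cell surface when bound to the glycoprotein heavy chain SLC3A2, also called CD98, and then exchange one amino acid for another. Carriers of the SLC1 and SLC38 families use the sodium gradient to bring in or exchange small neutral amino acids such as glutamine, and SLC43A1 lets large neutral amino acids pass down their gradient. In lymphocytes, uptake of leucine and glutamine is known to feed protein synthesis and the growth-controlling kinase complex mTORC1.

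GFP high libraries had more transcript, relative to library size, of Slc1a5, the gene of the glutamine exchanger ASCT2. They had less of Slc43a1 and Slc7a5, which encode the large neutral amino acid carriers LAT3 and LAT1. Slc1a5 was 1.73-fold higher, while Slc43a1 was 1.69-fold lower and Slc7a5 was 1.40-fold lower (edgeR, quasi-likelihood, with adjustment after Benjamini and Hochberg, adjusted p = 0.00188, 0.000755 and 0.00431). The other 7 genes, including the shared heavy chain Slc3a2 and the abundant carrier Slc38a2, did not pass the test. Thus 1 of 10 genes rose and 2 fell, where 12.0% of the 12772 genes tested rose and 15.4% fell (27.5% in either direction), so the number of calls among the carriers is close to that among all genes. All 10 carriers passed the filter on low counts, and levels are given as CPM, which is the count scaled to a common library size after TMM normalization. Their median log2 fold change was 0.0092, against 0.03 over all genes tested. Total counts per library were 11347097 to 13838769 for GFP high, against 10640894 to 14858520 for GFP low. In these bulk libraries, fewer cells that hold a transcript and less of it per cell cannot be told apart. CPM is relative to the library, so the amount of transcript per cell was not measured.

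**Figure D1:**
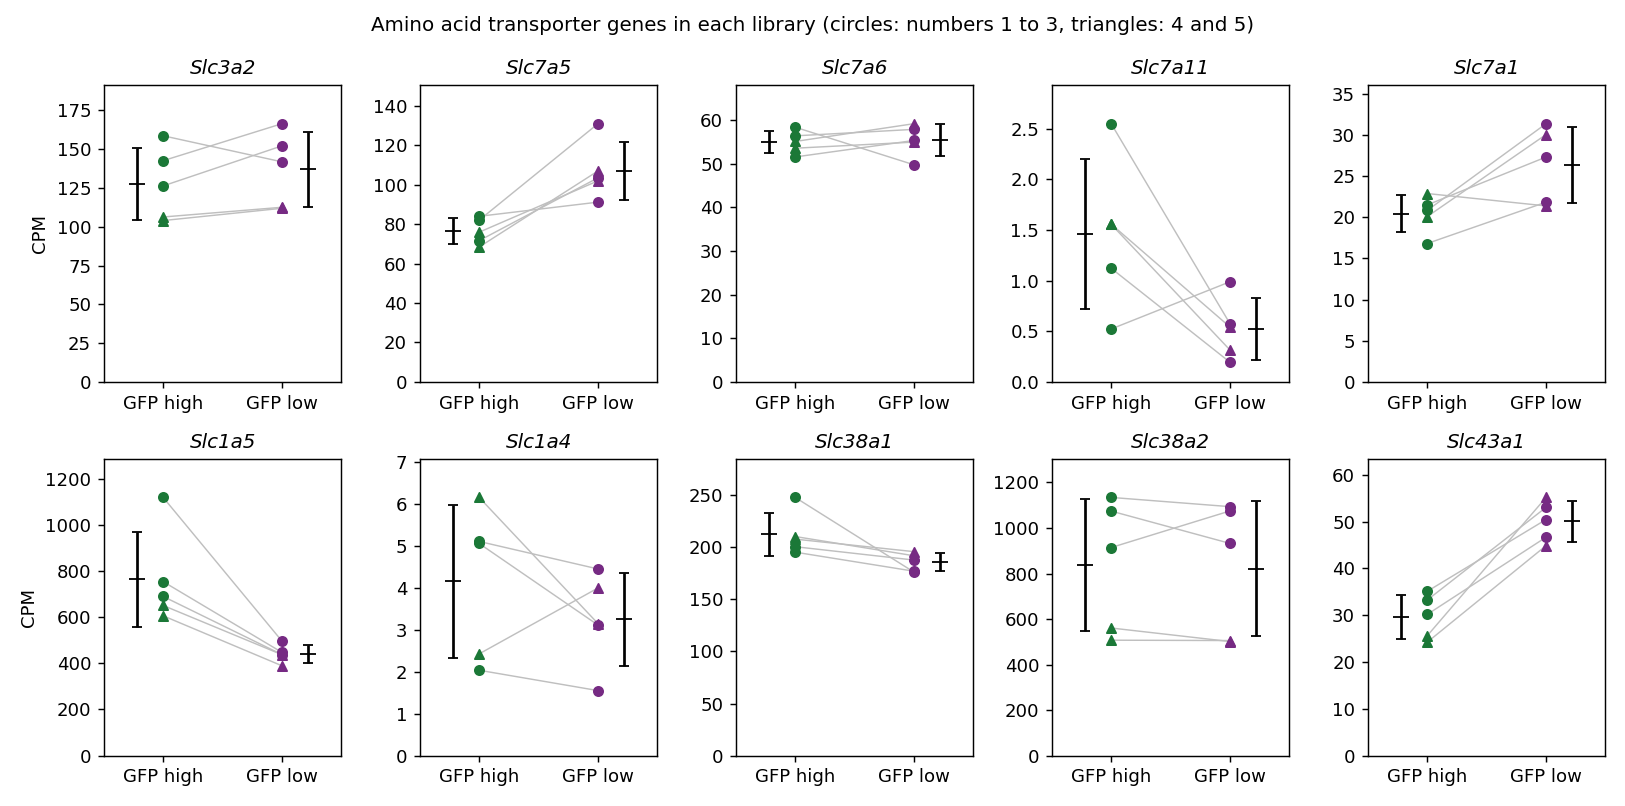
CPM (linear axes from 0) of the 10 carriers in the 5 GFP high and 5 GFP low libraries. Grey lines join libraries of the same number, circles are numbers 1 to 3, triangles are numbers 4 and 5, and black bars give mean and SD. The groups separate in the panels of Slc1a5, Slc7a5 and Slc43a1, and the 2 replicate sets separate in those of Slc3a2 and Slc38a2.

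RefSeq promoter windows, from 250 bases before to 50 bases after a start site on GRCm38.p6, were found for 7 of the 10 genes, in 9 windows. They are shown because amino acid shortage is known to act on carrier genes through ATF4, which binds with C/EBP partners at composite elements, and MYC through E-boxes. Both strands were searched for TGATGNAA, the core of such a composite element, and for CACGTG, the E-box, which do not overlap in these windows. The 3 genes with a match were Slc7a11, Slc1a4 and Slc43a1, and their windows are printed with the matches in capitals.
Slc7a11, chr3:50443564-50443863, minus strand: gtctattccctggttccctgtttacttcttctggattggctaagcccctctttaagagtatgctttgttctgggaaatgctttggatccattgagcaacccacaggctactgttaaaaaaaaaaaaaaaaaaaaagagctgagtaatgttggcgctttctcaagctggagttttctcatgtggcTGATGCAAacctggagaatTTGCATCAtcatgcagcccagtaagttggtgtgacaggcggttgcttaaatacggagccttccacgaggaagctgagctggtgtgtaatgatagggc
Slc1a4, chr11:20332664-20332963, minus strand: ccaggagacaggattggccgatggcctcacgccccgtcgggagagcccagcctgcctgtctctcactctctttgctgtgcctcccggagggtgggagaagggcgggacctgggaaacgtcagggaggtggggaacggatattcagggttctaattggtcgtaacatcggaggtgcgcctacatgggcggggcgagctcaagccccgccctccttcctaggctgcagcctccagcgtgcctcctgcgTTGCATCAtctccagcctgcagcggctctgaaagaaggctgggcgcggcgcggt
Slc43a1, chr2:84840073-84840372, plus strand: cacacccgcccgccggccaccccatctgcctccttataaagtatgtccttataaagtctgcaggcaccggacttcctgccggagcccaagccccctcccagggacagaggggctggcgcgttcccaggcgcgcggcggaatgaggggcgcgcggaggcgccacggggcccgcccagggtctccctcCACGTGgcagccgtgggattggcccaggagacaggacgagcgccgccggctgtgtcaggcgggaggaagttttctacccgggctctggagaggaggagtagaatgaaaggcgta
Slc7a11 had TGATGNAA on both strands, at -66 and -47 from the start site, and Slc1a4 had it on the opposite strand at -4. Slc43a1 had an E-box at -64. Of all 32851 windows of 300 bases, 3.97% held TGATGNAA and 7.15% held CACGTG. The windows of Slc3a2, Slc7a1, Slc7a6 and Slc38a2 held neither run of letters, and Slc7a5, Slc1a5 and Slc38a1 had no window. The single windows of Slc3a2 (chr19:8713848-8714147, minus strand) and Slc43a1 lie inside the annotated gene spans, not at their upstream ends. Other start sites, introns and distant sequence were not searched, so a gene without a match here may hold one elsewhere.

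Marker genes also moved with the groups. Beside the counts below, 12.0% of all genes tested rose and 15.4% fell, or 20.7% and 21.0% with the replicate block. The lists are short, so a few calls in one of them say little. All 10 genes of a proliferation list fell, with a summed level of 2164 to 2773 CPM for GFP high, against 4562 to 5757 CPM for GFP low. Of 8 B-lineage markers, all detected in both groups, 3 rose and 0 fell (7 rose and 0 fell with the replicate block), with a summed level of 12390 to 14205 CPM for GFP high, against 9570.1 to 10798 CPM for GFP low. Of 9 monocyte and macrophage markers 5 were tested, and 3 rose and 0 fell (5 rose and 0 fell with the replicate block). Their summed level was 275 to 417 CPM for GFP high, against 173 to 249 CPM for GFP low. Of 8 natural killer cell markers 3 were tested and 1 rose, Klrb1c, while with the replicate block 1 rose and 1 fell. Their summed list level was 188 to 329 CPM for GFP high, against 66.5 to 167 CPM for GFP low. Gzma and Eomes were at 0 in every library, as were the T cell genes Cd8a and Bcl11b, the megakaryocyte gene Gp1bb, and the mast cell genes Ms4a2 and Fcer1a. Of 8 stroma and endothelium markers 3 were tested and 1 rose, Pecam1, with a summed list level of 254 to 305 CPM for GFP high, against 142 to 178 CPM for GFP low. Of 8 plasma cell markers 7 were tested, 2 rose and 1, Jchain, fell (4 rose and 1 fell with the replicate block). Their summed level was 659 to 1131 CPM for GFP high, against 543 to 917 CPM for GFP low. T cell markers summed to at most 3.38 CPM for GFP high, against 2.17 for GFP low, and neutrophil, erythroid and megakaryocyte markers to at most 12.6, 42.3 and 6.31 CPM in GFP high and 7.99, 22.1 and 9.55 CPM in GFP low. Of the 3 tested erythroid markers 1 rose, Hbb-bs, a hemoglobin gene. Of the 3 tested neutrophil markers 0 rose, or 1 with the replicate block. The block left the counts of the erythroid, plasmacytoid dendritic cell and stroma lists unchanged. Markers of plasmacytoid dendritic cells summed to 618 to 693 CPM for GFP high, against 538 to 606 CPM for GFP low, with 2 of 4 tested higher, and those of basophils and mast cells to at most 1.39 CPM for GFP high, against 1.29 for GFP low. Klrb1c, Pecam1, Jchain and Hbb-bs were named after their values were seen. The part of other cells, and of the fall in proliferation genes, in the differences of the carriers was not tested.

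The heavy chain and its light chains are described first. Slc3a2 (ENSMUSG00000010095, GRCm38 chromosome 19, 8706882 to 8723369) encodes the heavy chain that carries LAT1, y+LAT2 and xCT to the membrane. It had 159, 126, 143, 104 and 106 CPM across GFP high libraries 1 to 5, against 142, 152, 166, 112 and 113 CPM across GFP low libraries 1 to 5. The groups overlapped, and in each group the libraries numbered 4 and 5 were below the other three. Its mean was 128 ± 23.5 CPM for GFP high, against 137 ± 24.2 for GFP low (± SD, 5 libraries each). The log2 fold change of -0.10 ± 0.15 (SE) did not pass (edgeR adjusted p = 0.645).

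Slc7a5 (ENSMUSG00000040010, chromosome 8, 121881150 to 121907694) encodes LAT1, the exchanger that brings in leucine and other large neutral amino acids against intracellular substrates. It had 84.0, 71.6, 82.0, 75.9 and 68.4 CPM across GFP high libraries 1 to 5, against 91.2, 103, 131, 102 and 107 CPM across GFP low libraries 1 to 5. All GFP high libraries were below all GFP low libraries, and the nearest were GFP high 1 and GFP low 1, which share a number. The mean was 76.4 ± 6.63 CPM for GFP high, against 107 ± 14.7 for GFP low (± SD, 5 libraries each). GFP high was lower in 5 of 5 pairs of the same number, with a log2 fold change of -0.48 ± 0.10 (SE, edgeR adjusted p = 0.00431). Groups that did not overlap in this direction were seen for 12.6% of all genes tested, and for 2 of the 10 carriers.

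Slc7a6 (ENSMUSG00000031904, chromosome 8, 106168857 to 106198706) encodes y+LAT2, which exchanges cationic amino acids such as arginine for neutral ones. It had 58.3, 51.5, 56.3, 55.0 and 53.5 CPM across GFP high libraries 1 to 5, against 49.7, 55.3, 57.8, 59.1 and 54.9 CPM across GFP low libraries 1 to 5. These ranges lay on top of each other, with the smallest relative spread of the 10 genes in GFP high. Its log2 fold change was -0.01 ± 0.08 (SE, edgeR adjusted p = 0.938). Slc7a11 (ENSMUSG00000027737, chromosome 3, 49892526 to 50443614) encodes xCT, which imports cystine for glutathione synthesis in exchange for glutamate. It was the scarcest of the 10, with 35, 6, 16, 20 and 18 reads across GFP high libraries 1 to 5, against 8, 14, 2, 4 and 8 reads across GFP low libraries 1 to 5. These are means of 1.46 ± 0.742 CPM for GFP high, against 0.523 ± 0.305 for GFP low. GFP high was above GFP low in 4 of 5 pairs, and the pair numbered 2 went the other way. The log2 fold change of 1.45 ± 0.51 (SE) did not pass by edgeR (adjusted p = 0.0518), whereas DESeq2 put it just past the threshold (1.47 ± 0.59, adjusted p = 0.0461). By DESeq2, 2 of the 10 carriers were thus higher in GFP high, as were 13.1% of all genes it tested.

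Slc7a1 is a family member that works without the heavy chain. It encodes CAT1, the main importer of arginine and lysine in many cells (ENSMUSG00000041313, chromosome 5, 148327410 to 148399904). It had 21.5, 16.8, 20.8, 22.9 and 20.1 CPM across GFP high libraries 1 to 5, against 27.3, 21.8, 31.4, 21.4 and 30.1 CPM across GFP low libraries 1 to 5. The groups overlapped through the pair numbered 4, the only one in which GFP high was the higher. The log2 fold change of -0.37 ± 0.14 (SE) did not pass without pairing (edgeR adjusted p = 0.0747) and passed with the replicate number as a block (-0.36 ± 0.13, adjusted p = 0.0361).

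The sodium-dependent exchangers differed widely in level. Slc1a5 (ENSMUSG00000001918, chromosome 7, 16781340 to 16798274) had 754, 689, 1118, 606 and 650.3 CPM across GFP high libraries 1 to 5, against 447, 437, 496, 389 and 437 CPM across GFP low libraries 1 to 5. All GFP high libraries were above all GFP low libraries, and GFP high 3 stood well above the rest of its group. The mean was 763 ± 206 CPM for GFP high, against 441 ± 38.0 for GFP low (± SD, 5 libraries each), a log2 fold change of 0.79 ± 0.15 (SE, edgeR adjusted p = 0.00188). Without GFP high 3, the log2 fold change was 0.61 (adjusted p = 0.000662). Groups that did not overlap in this direction were seen for 7.92% of all genes tested, and for 1 of the 10 carriers. Slc1a4 (ENSMUSG00000020142, chromosome 11, 20302180 to 20332713), which encodes the related exchanger ASCT1 for alanine, serine, cysteine and threonine, had 5.10, 5.05, 2.03, 6.15 and 2.42 CPM across GFP high libraries 1 to 5, against 4.45, 3.11, 1.55, 3.14 and 3.99 CPM across GFP low libraries 1 to 5. These ranges overlapped, and the libraries numbered 3 were the lowest in both groups. Its log2 fold change was 0.35 ± 0.38 (SE, edgeR adjusted p = 0.529).

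Of the sodium-coupled importers, Slc38a1 (ENSMUSG00000023169, chromosome 15, 96571418 to 96642913) encodes SNAT1, a glutamine importer. It had 201, 195, 248, 210.4 and 208 CPM across GFP high libraries 1 to 5, against 188, 177, 176, 192 and 196 CPM across GFP low libraries 1 to 5. GFP high was the higher in 5 of 5 pairs, but the lowest GFP high library and the highest GFP low library were almost level. The log2 fold change of 0.19 ± 0.08 (SE) did not pass without pairing (edgeR adjusted p = 0.0982) and passed with the replicate block (0.19 ± 0.07, adjusted p = 0.0457). Slc38a2 (ENSMUSG00000022462, chromosome 15, 96687392 to 96699730) encodes SNAT2, an importer whose transcription is known to be raised when amino acids run short. It had 914, 1074, 1134, 561 and 507 CPM across GFP high libraries 1 to 5, against 1075, 932, 1094, 501 and 506 CPM across GFP low libraries 1 to 5. The libraries numbered 1 to 3 were well above those numbered 4 and 5 in both groups, with ratios of means of 1.95 in GFP high and 2.05 in GFP low, while the groups themselves overlapped. Slc38a2 and Slc3a2 were the 2 carriers entirely higher in replicates 1 to 3, a pattern seen in 5.83% of all genes tested. The log2 fold change between groups was 0.03 ± 0.28 (SE, edgeR adjusted p = 0.951), and with the replicate block it was 0.04 ± 0.06 (adjusted p = 0.659).

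Slc43a1 (ENSMUSG00000027075, chromosome 2, 84838850 to 84863594) encodes LAT3, a facilitator of leucine and other large neutral amino acids. It had 30.2, 35.1, 33.3, 25.6 and 24.2 CPM across GFP high libraries 1 to 5, against 46.7, 50.5, 53.1, 55.2 and 44.9 CPM across GFP low libraries 1 to 5. All GFP high libraries were below all GFP low libraries, by a wide gap. The mean was 29.7 ± 4.71 CPM for GFP high, against 50.1 ± 4.29 for GFP low (± SD, 5 libraries each), a log2 fold change of -0.75 ± 0.12 (SE, edgeR adjusted p = 0.000755).

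**Figure D2:**
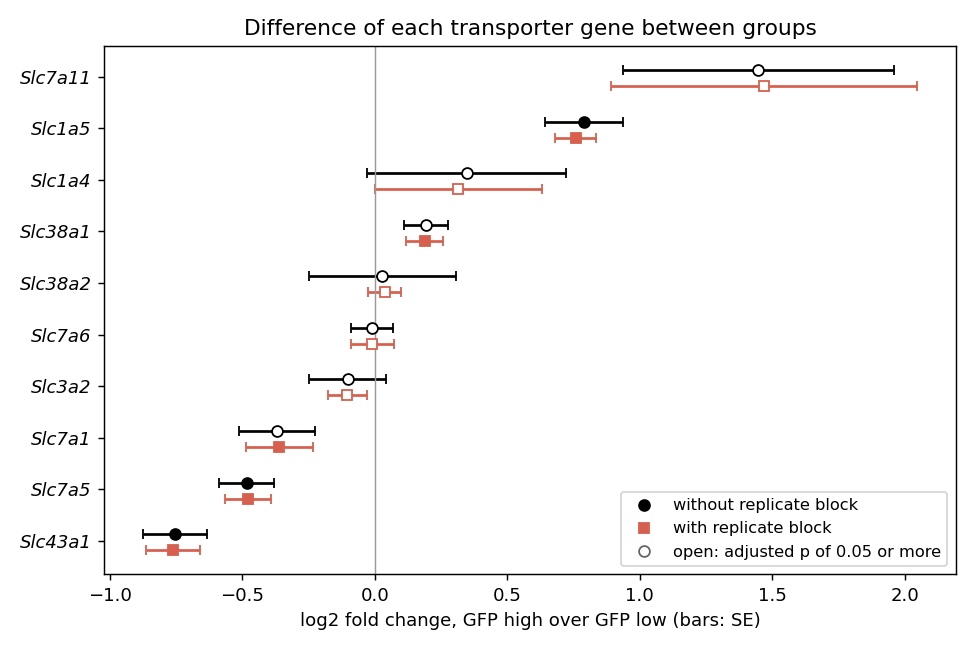
Log2 fold change, GFP high over GFP low, of each carrier with its SE, without the replicate block (black circles) and with it (red squares); open symbols had an adjusted p of 0.05 or more. Slc1a5, Slc7a5 and Slc43a1 are filled in both fits, and Slc7a1 and Slc38a1 only with the block.

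With the replicate block, 2 carriers rose and 3 fell, where 20.7% of all genes tested rose and 21.0% fell (41.8% in either direction). The calls added were Slc38a1 and Slc7a1. Within replicates 1 to 3 alone the log2 fold changes were 0.92 for Slc1a5, -0.43 for Slc7a5 and -0.58 for Slc43a1, and within replicates 4 and 5 alone they were 0.59, -0.55 and -1.02 in the same order. All 6 values passed by edgeR, that of Slc7a5 in replicates 1 to 3 narrowly (adjusted p = 0.049995). Without both libraries numbered 3 they were 0.66, -0.43 and -0.78 (edgeR adjusted p = 0.00103, 0.0164 and 0.00582).

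Levels were compared between genes as CPM per kilobase of annotated exon. Slc1a5 led in GFP high with 183 ± 49.3 CPM per kb, followed by Slc38a2 with 94.8 ± 32.8, Slc3a2 with 36.2 ± 6.65 and Slc7a5 with 20.6 ± 1.79 (SD, n = 5), and the library ranges of these neighbours did not overlap. In GFP low the order of these 4 genes was the same, at 106 ± 9.10, 93.0 ± 33.6, 38.8 ± 6.86 and 28.8 ± 3.96 CPM per kb, but the ranges of Slc1a5 and Slc38a2 overlapped, as did those of Slc3a2 and Slc7a5. Slc38a1 and Slc7a6 followed with overlapping ranges in both groups, at means of 10.8 to 12.3 CPM per kb. Slc43a1 was next with 5.19 ± 0.824 in GFP high and 8.76 ± 0.751 in GFP low. Slc7a1, Slc1a4 and Slc7a11 came last in both groups, and Slc7a11 had 0.105 ± 0.0533 CPM per kb in GFP high and 0.0375 ± 0.0219 in GFP low. These levels depend on the summed exon length, which counts every annotated exon and is longest for Slc38a1 (17236 bases) and Slc7a11 (13922 bases). Slc1a5 alone made up 30.4% to 39.6% of the summed CPM of the 10 carriers for GFP high, against 21.6% to 29.3% for GFP low.

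**Figure D3:**
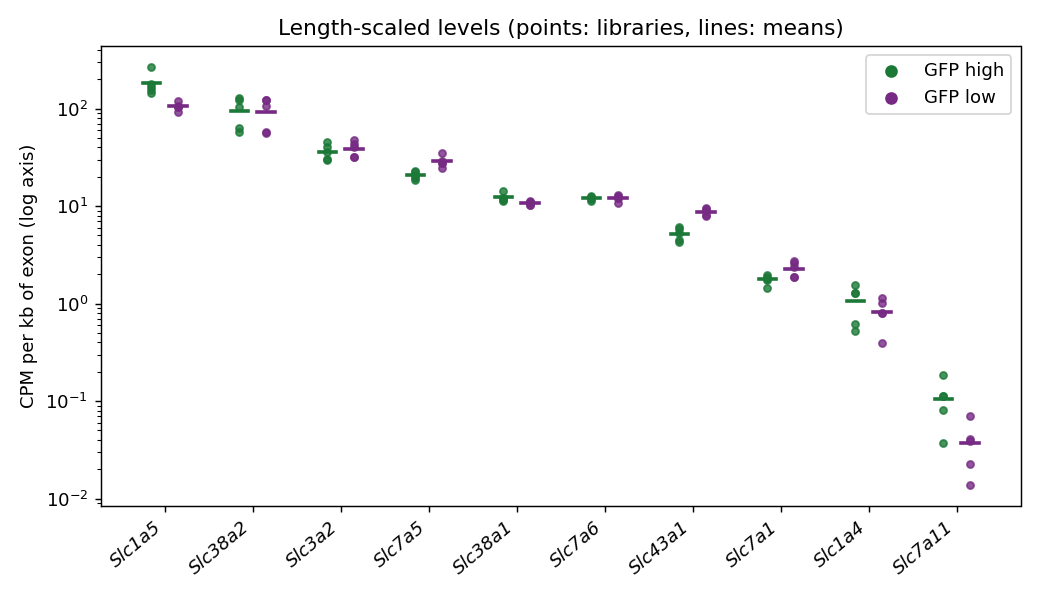
CPM per kilobase of annotated exon (log axis) of the 10 carriers, ordered by their mean in GFP high; points are libraries and lines are means. Levels span from over 100 CPM per kb for Slc1a5 to about 0.1 for Slc7a11 in GFP high.

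Whether carriers moved relative to each other was tested on 4 ratios within each library, which do not depend on scaling between libraries. The ratio of the light chain Slc7a5 to the light chain Slc7a6, per length, was 1.58 to 1.79 for GFP high, against 2.13 to 2.79 for GFP low. The groups did not overlap, and the log2 ratio differed by -0.47, GFP high minus GFP low (two-sided exact permutation test, n = 5 and 5, p = 0.00794, the smallest this design allows, adjusted p = 0.0317 over 4 ratios). Taken as pairs of the same number, with GFP high lower in 5 of 5, this ratio had an adjusted p = 0.125 by an exact sign-flip test, whose raw p cannot go below 0.0625 with 5 pairs. Between groups, Slc7a6 had a log2 fold change of -0.01 and Slc7a5 of -0.48 (edgeR). The difference in their ratio thus largely repeats the fall of Slc7a5 in the same libraries. For Slc7a5 over the heavy chain Slc3a2 the log2 difference was -0.38 and did not pass (exact permutation test, p = 0.0397, adjusted p = 0.0794). For Slc1a5 over Slc1a4 it was 0.46 (exact permutation test, adjusted p = 0.571), with a spread of 0.973 (SD) in GFP high and 0.658 in GFP low. For Slc38a1 over Slc38a2 it was 0.15 (exact permutation test, adjusted p = 0.579), with a spread of 0.523 in GFP high and 0.63 in GFP low.

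Likeness across the 10 libraries was measured as Pearson's r of log2(CPM + 1), as a description, and the libraries share groups and replicate sets. Among the carriers, Slc7a5 was most like Slc43a1 (r = 0.857), Slc1a5 most like Slc38a1 (r = 0.82) and Slc38a2 most like Slc3a2 (r = 0.845). Among 9462 other protein-coding genes with a mean of at least 5 CPM, those most like Slc7a5 were Xrcc3, a DNA repair gene of homologous recombination (r = 0.96), Nt5c3, a nucleotidase gene (r = 0.959), and Ada, the adenosine deaminase gene (r = 0.959). Ada had 26.3 ± 3.73 CPM for GFP high, against 52.8 ± 9.18 for GFP low (± SD, 5 libraries each). Those most like Slc3a2 were Tbrg4 (r = 0.957), Rpain (r = 0.95) and Hspa5, the gene of the endoplasmic reticulum chaperone BiP (r = 0.948). The groups overlapped in Hspa5, with 1186 ± 295.5 CPM for GFP high, against 1226 ± 364 for GFP low, and it had 1315 to 1647 CPM in the libraries numbered 1 to 3 against 837 to 891 CPM in those numbered 4 and 5.

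Other genes of amino acid supply and sensing were taken from 5 lists, with 88 of 127 distinct genes tested. Among these 88 genes 7 rose and 20 fell, where 12.0% of all genes tested rose and 15.4% fell. Without both libraries numbered 3 there were 6 and 10, where 7.23% of all genes rose and 10.7% fell. Of these, 5 and 10 were also called with all libraries. Of 46 other amino acid carriers 12 were tested. The median log2 fold change was 0.31, with 2 genes that rose, 1 that fell and 9 that missed the threshold, numbers close to the 12.0% and 15.4% of all genes. Slc43a2, which encodes LAT4 and is a close relative of Slc43a1, rose to 84.8 ± 20.4 CPM in GFP high, against 53.7 ± 10.04 CPM in GFP low (log2 fold change 0.66 ± 0.17, edgeR adjusted p = 0.0121). Pqlc2, a lysosomal exporter of cationic amino acids, rose as well (0.55 ± 0.13, adjusted p = 0.0071). Slc16a10, the aromatic amino acid carrier TAT1, fell (-1.96 ± 0.64, adjusted p = 0.0367), at the low levels of 0.623 ± 0.453 CPM for GFP high, against 2.49 ± 1.61 for GFP low. With the replicate block 7 of these genes rose and 2 fell, against 20.7% and 21.0% of all genes. Without both libraries numbered 3, Slc43a2 (0.62, edgeR adjusted p = 0.0485) and Pqlc2 (0.52, adjusted p = 0.0325) still passed, and Slc16a10 did not pass the filter on low counts.

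The amino acid response list holds Atf4, Eif2ak4, the gene of the kinase GCN2 that acts upstream of it, and genes known to respond. Of its 21 tested genes 9 fell, 2 rose and 10 missed the threshold, where 15.4% of all genes fell and 12.0% rose, and the median was -0.35. With the replicate block 11 fell and 3 rose, against 21.0% and 20.7% of all genes. The fall included enzymes that make serine and feed one-carbon units. Psat1 had 98.4 ± 10.9 CPM for GFP high, against 208 ± 21.4 for GFP low (-1.08 ± 0.10, edgeR adjusted p = 2.14e-05). Phgdh, the first enzyme of serine synthesis, had 97.9 ± 14.9 CPM for GFP high, against 183 ± 21.5 for GFP low (-0.90 ± 0.12, adjusted p = 0.0002). Mthfd2, a mitochondrial enzyme of folate metabolism, had 34.9 ± 3.18 CPM for GFP high, against 65.5 ± 3.23 for GFP low (-0.91 ± 0.09, adjusted p = 2.59e-05). Asns, which makes asparagine, was lower too (-0.86 ± 0.19, adjusted p = 0.00586), and the 2 genes that rose were Trib3, an inhibitor of ATF4 (0.85 ± 0.18, adjusted p = 0.00348), and Cebpb (1.21 ± 0.37, adjusted p = 0.0309). Atf4 itself had 430.5 ± 171 CPM for GFP high, against 412 ± 186 for GFP low (0.06 ± 0.35, adjusted p = 0.915). Cebpg, Shmt2, Psph, Cth and Eif4ebp1 made up the rest of the 9 that fell. Without both libraries numbered 3, 7 of these 9 passed, all but Cth and Eif4ebp1, as did Trib3 but not Cebpb (1.16, edgeR adjusted p = 0.106). The choice of Asns, Trib3, Atf4, Shmt2, Psph, Cth and Eif4ebp1 was made after seeing values.

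Among 34 tested genes of amino acid sensing and mTORC1, 26 did not pass, while 3 rose and 5 fell (median -0.0082), shares at or below the 12.0% and 15.4% of all genes. Nprl3, a subunit of the GATOR1 complex that restrains mTORC1, rose (0.49 ± 0.12, edgeR adjusted p = 0.00941), as did the kinase gene Mtor (0.44 ± 0.12, adjusted p = 0.0148) and the leucine sensor relative Sesn1 (0.48 ± 0.15, adjusted p = 0.0326). Seh1l, shared by the GATOR2 complex and the nuclear pore, fell (-0.52 ± 0.09, adjusted p = 0.00117), and so did Rheb, the GTPase that switches mTORC1 on (-0.33 ± 0.08, adjusted p = 0.00848). Rragd, a Rag GTPase, Lamtor2, a part of its anchor on the lysosome, and Sec13, a further GATOR2 subunit, also fell, by 0.37, 0.30 and 0.27 on the log2 scale. Mtor, Sesn1, Rragd, Lamtor2 and Sec13 were named after their values were seen. With the replicate block 8 of these genes rose and 5 fell, against 20.7% and 21.0% of all genes. Without both libraries numbered 3, Nprl3, Mtor and Seh1l passed and the other 5 did not, among them Rheb (-0.26, edgeR adjusted p = 0.0567).

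Of 11 factors known to act on carrier genes, 7 did not pass, 1 rose and 3 fell (median 0.06), where 12.0% of all genes rose and 15.4% fell. Cebpb is the one that rose, with 5.84 ± 2.21 CPM for GFP high, against 2.53 ± 1.11 for GFP low. Cebpg, a partner of ATF4, fell (-0.56 ± 0.10, edgeR adjusted p = 0.00152), as did Trp53 (-0.35 ± 0.09, adjusted p = 0.0159) and, named after its values were seen, Hif1a (-0.23 ± 0.08, adjusted p = 0.0371). With the block 4 rose and 3 fell, against 20.7% and 21.0% of all genes. Without both libraries numbered 3, Cebpg was the only one of these 4 to pass. Of 15 tested genes that use the imported amino acids, 0 rose, 3 fell and 12 did not pass by edgeR (median -0.24, with 12.0% of all genes higher and 15.4% lower). At an unadjusted p under 0.05, 0 were higher and 5 lower, where 2402 and 2596 of all 12772 genes were. By DESeq2, 0 were higher and 3 lower, where 1814 and 2053 of the same 12772 genes were. Bcat1, which starts the breakdown of leucine, isoleucine and valine, had 16.0 ± 3.53 CPM for GFP high, against 43.3 ± 6.42 for GFP low (-1.44 ± 0.16, adjusted p = 6.88e-05). Gclm, a subunit of the enzyme that starts glutathione synthesis from cysteine, fell (-0.55 ± 0.11, adjusted p = 0.00243), and so did the transaminase Got2 (-0.28 ± 0.09, adjusted p = 0.0449). With the block 0 rose and 6 fell in this list, against 20.7% and 21.0% of all genes. Without both libraries numbered 3, Bcat1 and Gclm passed and Got2 did not (-0.22, edgeR adjusted p = 0.155).

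**Figure D4:**
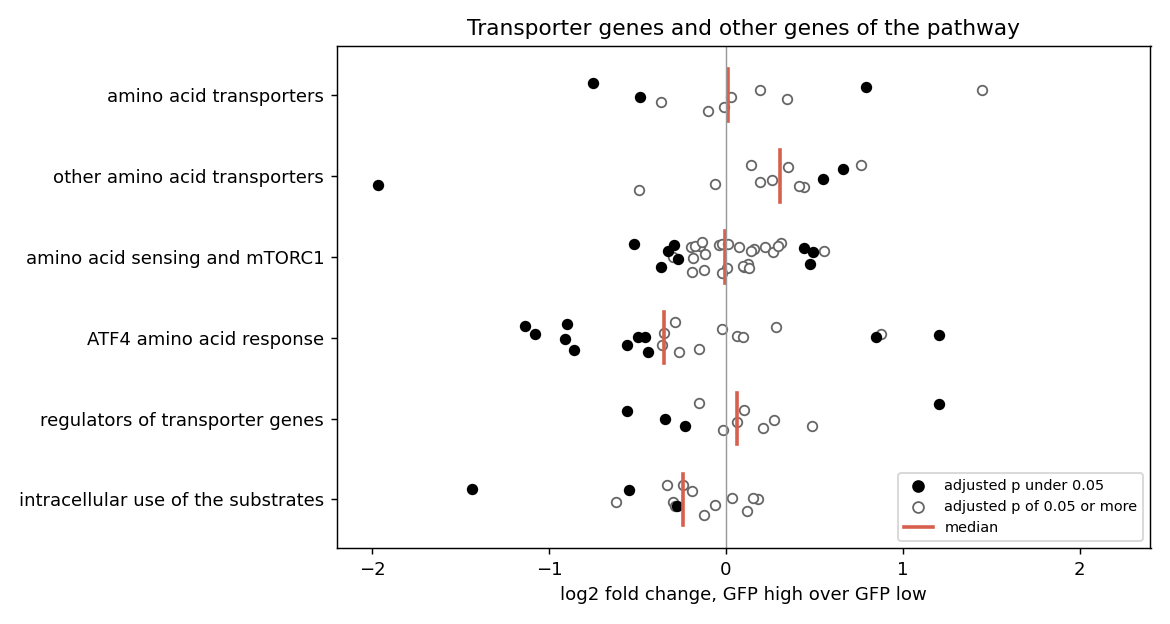
Log2 fold change, GFP high over GFP low, of the tested genes of each list; filled points passed the test, open points did not, and red lines are medians. The median of the amino acid response list is -0.35 and that of the other amino acid transporters is 0.31, while the 10 carriers spread on both sides of 0.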

How the data were processed

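The authors deposited whole-number read counts per Ensembl gene, not normalized, for 10 libraries. Per the submitters' processing notes the build was mm10 and the tools were STAR, featureCounts and DESeq2, with no role or version. Per the labels, polyadenylated RNA was amplified with a template-switching kit for low input. Strand use and the treatment of reads with several matches are not given in the sources used here. Symbols, positions and exon lengths came from GENCODE M21 (GRCm38, the same build), which matched 99.8% of identifiers. None of the 10 genes shares annotated exon bases with another gene.

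Libraries were grouped by title. Genes were kept by filterByExpr, scaled by TMM and tested with edgeR 4.0.16 (R 4.3.3) by the quasi-likelihood test, GFP high over GFP low, without covariates, with Benjamini-Hochberg adjustment over 12772 genes and a threshold of 0.05. The test was tried on simulated counts first. CPM used TMM-scaled library sizes. A floor of 3 counts is 0.202 to 0.282 CPM and covers counting error only. Within-library ratios used counts plus 0.5 over exon length. Same-numbered libraries deviated together from their group means (correlations of 0.321 to 0.45 over genes in 5 of 5 pairs), and 10 of 10 libraries matched their own number best. GFP high 4 with GFP low 5 (0.392) and GFP high 5 with GFP low 4 (0.418) lay in the same range. The split of numbers 1 to 3 from 4 and 5 thus enters these values. The numbers were taken to pair the libraries, from the data and the shared labels, and a fit with the replicate block was an alternative. Other alternatives were DESeq2 1.42.0, its size factors in edgeR, other count filters, each library left out, replicates 1 to 3 or 4 and 5 alone, and both libraries numbered 3 left out. No 2 libraries of a group were alike within sampling noise (lowest chi-square per gene 6.92).

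The carriers and gene lists were chosen with earlier results of these data known. Named genes were all 10 carriers, the 3 tested genes with the lowest p in each of 5 pathway lists, and the 3 genes most like Slc7a5 and Slc3a2. Other names are stated as chosen after seeing values.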

Additional observations from a re-analysis of the deposited data

Results flagged for a closer look

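In the library GFP high 3, Slc1a5 had 1118 CPM, where the gap to the next library of the group was 0.711 of the group's whole range, just over Dixon's critical value of 0.71. In the same library Slc38a1 had 248 CPM, with a gap of 0.714 of the range. These were 2 flags among 58 groups of 5 libraries examined, and chance flags about 1 in 20 groups. Slc1a5 passed the test without this library (log2 fold change 0.61), and Slc38a1, in the fit without the replicate block, did not pass with it (0.19) or without it (0.13).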

How the results depend on the processing

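Slc1a5, Slc43a1 and Slc7a5 kept their direction and passed under all 18 alternatives, with log2 fold changes of 0.59 to 0.92, -1.02 to -0.58 and -0.55 to -0.40. With the replicate block, Slc7a1 (-0.36) and Slc38a1 (0.19) also passed. With it 2 carriers and 21 other pathway genes were higher, where 20.7% of all genes were. Without it these counts were 1 and 7, where 12.0% of all genes were higher. Taken as pairs, the ratio of Slc7a5 to Slc7a6 (-0.47) had an adjusted p = 0.125 by an exact sign-flip test of 5 pairs, whose smallest raw p is 0.0625. The block changed no other call of a carrier or ratio. Over all alternatives the adjusted p ranged from 0.0361 to 0.365 for Slc7a1, from 0.0457 to 0.458 for Slc38a1, from 0.0298 to 0.263 for Slc7a11 and from 0.0317 to 0.125 for that ratio. Slc7a11 passed with DESeq2 (1.47) and with DESeq2 size factors in edgeR (1.46), where 2 carriers were higher, against 13.1% and 12.6% of all genes. It also passed without GFP high 2 (1.68) and without GFP low 2 (1.80), and it was filtered out at 1 CPM in 5 libraries. The sign of Slc7a6 turned with DESeq2 size factors (0.0014), without a filter (0.0041) and in replicates 1 to 3 alone (0.055). With 1 library left out, the ranges were -0.050 to 0.032 for Slc7a6, -0.10 to 0.19 for Slc38a2, 1.17 to 1.80 for Slc7a11, 1 to 2 carriers higher, 13 to 19 other pathway genes lower, -0.45 to -0.31 for Slc7a5 over Slc3a2 -0.0037 to 0.32 for Slc38a1 over Slc38a2, 0.09 (without GFP high 3) to 0.74 for Slc1a5 over Slc1a4, -0.51 to -0.41 for Slc7a5 over Slc7a6, -0.16 to -0.014 for Slc3a2, 0.17 to 0.53 for Slc1a4, -0.43 to -0.29 for Slc7a1 and 0.13 to 0.24 for Slc38a1. Slc7a5 over Slc3a2 passed only without GFP low 1 (-0.45, adjusted p = 0.0476). With all libraries 20 other pathway genes were lower, where 15.4% of all genes were. That count was 13 without GFP high 2 and 13 without GFP low 3. It was 13 in replicates 1 to 3, 12 in replicates 4 and 5 and 10 without both libraries numbered 3, fits that hold fewer libraries. In the last of these 10.7% of all genes were lower, 26 of the called pathway genes kept their sign and 1 was filtered out. The shares of all genes in the other fits with fewer libraries are not given here. Other causes were not tested. Slc7a11 rested on at most 35 counts per library.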

Other observations

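The split between libraries numbered 1 to 3 and those numbered 4 and 5, seen in Slc38a2 and Slc3a2, was found in 2 of the 10 carriers, higher in replicates 1 to 3 without overlap, where 5.83% of all genes tested had this pattern. Of 21 tested genes of the amino acid response list, 2 had it. Atf4 had 535 to 575 CPM in GFP high and 501 to 600.3 CPM in GFP low libraries numbered 1 to 3, and 218 to 273 CPM in GFP high and 211 to 213 CPM in GFP low libraries numbered 4 and 5. Ddit3, a stress-induced transcription factor gene, had 34.2 to 52.2 CPM in GFP high and 34.9 to 60.8 CPM in GFP low libraries numbered 1 to 3, and 13.6 to 16.4 CPM in GFP high and 11.1 to 11.2 CPM in GFP low libraries numbered 4 and 5. The serine synthesis gene Psat1 did not follow this split, with 81.0 to 103 CPM in GFP high and 175 to 225 CPM in GFP low libraries numbered 1 to 3, and 98.6 to 111 CPM in GFP high and 198 to 226 CPM in GFP low libraries numbered 4 and 5. These genes were looked at after the values of Slc38a2 were seen, the labels do not say what the numbers stand for, and no test was made.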
